A study of Homo sapiens with 12 samples.

Results

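The cytosolic ribosomal protein genes were followed through neural differentiation of H9, a long-established line of human embryonic stem cells. They were taken as the protein-coding genes with an RPL or RPS symbol and a number, with RPLP0, RPLP1, RPLP2 and RPSA. The RPS6K kinases and the Y-linked RPS4Y genes were left out, and 84 of 19804 nuclear protein-coding genes met this rule. Of these, 46 are core genes of the large subunit, 31 are core genes of the small subunit and 7 are paralogues: RPL3L, RPL7L1, RPL10L, RPL22L1, RPL26L1, RPL39L and RPS27L. Poly(A)-selected RNA of wild-type and SOX21-/- H9 cells was sequenced on days 0, 4 and 8, in 12 libraries that form 6 groups of 2. The wild-type libraries are labelled WT1 and WT2 and the SOX21-/- libraries S13 and S23, at each day; all derive from H9. The labels do not say whether S13 and S23 are separate clones or whether a label marks the same culture on different days, so what the p-values reflect is no more than the scatter among these 12 libraries. Values were deposited as TPM, which scale reads by transcript length and sum to a fixed total, so the read depth is unknown. Each library was rescaled so that its nuclear protein-coding genes sum to the fixed total of TPM, and levels below are this rescaled TPM unless stated.

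A ribosome holds a small subunit that decodes the mRNA and a large subunit that joins amino acids. Ribosomal proteins are built in beside the ribosomal RNAs, most of them as a single copy. Their mRNAs are among the most abundant of growing cells and often begin with a C followed by an uninterrupted run of C and T, the terminal oligopyrimidine (TOP) motif through which mTOR signalling and LARP1 control their translation. Loss of a single copy of genes such as RPS19, RPL5, RPL11, RPS24, RPS26 or RPL35A causes Diamond-Blackfan anaemia, an inherited failure to make red blood cells.

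The first bases of the genes are shown for core members that the results turn on beside paralogues, to compare the run at the start. Each window covers 40 bases before the annotated start and 15 from it, read 5′ to 3′ on the gene's strand from RefSeq promoters on GRCh38.p14. Capitals mark the run of C and T that begins with a C at the start site, where it has at least 5 bases. The windows lie at chr1:153990722-153990776 (plus strand) for RPS27, chr15:63157463-63157517 (minus) for RPS27L, chr1:6199581-6199635 (minus) for RPL22, chr3:170870181-170870235 (minus) for RPL22L1, chr12:56116593-56116647 (plus) for RPL41, chr9:124861943-124861997 (minus) for RPL35, chr19:41860215-41860269 (plus) for RPS19 and chrX:119791616-119791670 (minus) for RPL39.
RPS27: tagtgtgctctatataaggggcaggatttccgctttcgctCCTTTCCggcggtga
RPS27L: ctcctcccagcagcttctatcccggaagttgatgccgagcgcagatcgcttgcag
RPL22: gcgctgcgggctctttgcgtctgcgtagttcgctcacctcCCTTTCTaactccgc
RPL22L1: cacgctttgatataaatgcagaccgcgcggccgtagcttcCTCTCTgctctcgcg
RPL41: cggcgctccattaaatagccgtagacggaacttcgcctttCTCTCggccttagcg
RPL35: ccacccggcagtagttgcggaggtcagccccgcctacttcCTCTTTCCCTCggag
RPS19: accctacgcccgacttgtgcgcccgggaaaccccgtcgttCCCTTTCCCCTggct
RPL39: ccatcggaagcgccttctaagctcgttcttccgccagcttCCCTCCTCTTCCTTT
The promoter table held 67 of the 84 members. Among those it did not hold were RPL23, RPL5, RPS20, RPL37, RPL30, RPL39L, RPS2, RPL23A, RPL3L, RPL7, RPS15A and RPL8. A start at C followed within a run of at least 5 C or T was found in 46 of 62 core members (74.2%), in 1 of 5 paralogues, RPL22L1, and in 5.14% of the 27305 genes of the table. The letters CCGGAAG, searched on both strands over the 300-base window of which these are part, were in 35.8% of the members and 12.2% of all genes. The letters TATAAA, searched in the same way, were in 10.4% and 14%. A gene with more than 1 annotated start counted if any start met the rule. With genes of a single start, the run was found in 41 of 56 members (73.2%) and in 3.98% of all genes.

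The SOX21 mRNA itself did not separate the genotypes on days 4 and 8. It was at 2.26 and 2.48 in wild type and 2.87 and 3.27 in S13 and S23 on day 0, at 180 and 192 against 186 and 164 on day 4, and at 150.1 and 120 against 293 and 82.3 on day 8. On day 0, where levels were low, S13 and S23 lay above both wild-type libraries. The groups overlapped at days 4 and 8, so the genotype rests on the label, and groups are called by their label throughout. The summed level of 10 pluripotent stem cell markers went from between 5142 and 5549 on day 0 to between 938 and 1114 on day 8. Over the same days that of 10 neural progenitor markers went from between 180 and 201 to between 1839 and 2159. LIN28A alone among the stem cell markers rose, from between 262 and 312 to between 704 and 826. It made up most of their sum on day 8. POU5F1 went from between 2675 and 3118 to at most 1.66, and NANOG from between 31.9 and 44.1 to at most 0.283. The day 0 libraries stood apart in makeup: 55.9% to 56.4% of the deposited TPM belonged to nuclear protein-coding genes there, against 83.5% to 87.1% on days 4 and 8. Processed pseudogenes held 11.1% to 12.4% on day 0 and 0.454% to 0.677% later. Day and this difference between libraries cannot be told apart, and every comparison with day 0 below carries it.

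Most core members had levels close to each other on each day, and the extremes lay farther apart on day 0. Of the 77 core members, 56 were within 2-fold of the median on day 0, 61 on day 4 and 58 on day 8. The median core level was 2093 on day 0, 2920 on day 4 and 2738 on day 8, each taken over means of 4 libraries. The highest core member stood 398-fold above the lowest on day 0, 20.3-fold on day 4 and 26.4-fold on day 8. The lowest on each day was RPS26, a small subunit protein near the mRNA exit channel, at 79.4, 467 and 343. At the top were RPL41, the shortest ribosomal protein, at 31560 on day 0 and 9453 on day 4, and RPS27 at 9029 on day 8.

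Across the 77 core members, levels on day 0 and day 4 correlated with Pearson's r = 0.401 (Spearman's rho = 0.323). Levels on day 4 and day 8 correlated with r = 0.991 (rho = 0.985). These are descriptions across genes, which share libraries and are not independent replicates. RPL14, of the large subunit, ranked 2 of 84 on day 0, 70 on day 4 and 72 on day 8. RPS25, which some viral mRNAs need for internal initiation, ranked 5, 74 and 74, while RPL36A ranked 74, 10 and 8 and RPL39 ranked 72, 8 and 6. The order of the core genes was thus nearly the same on the later days and different on day 0.

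**Figure D1:**
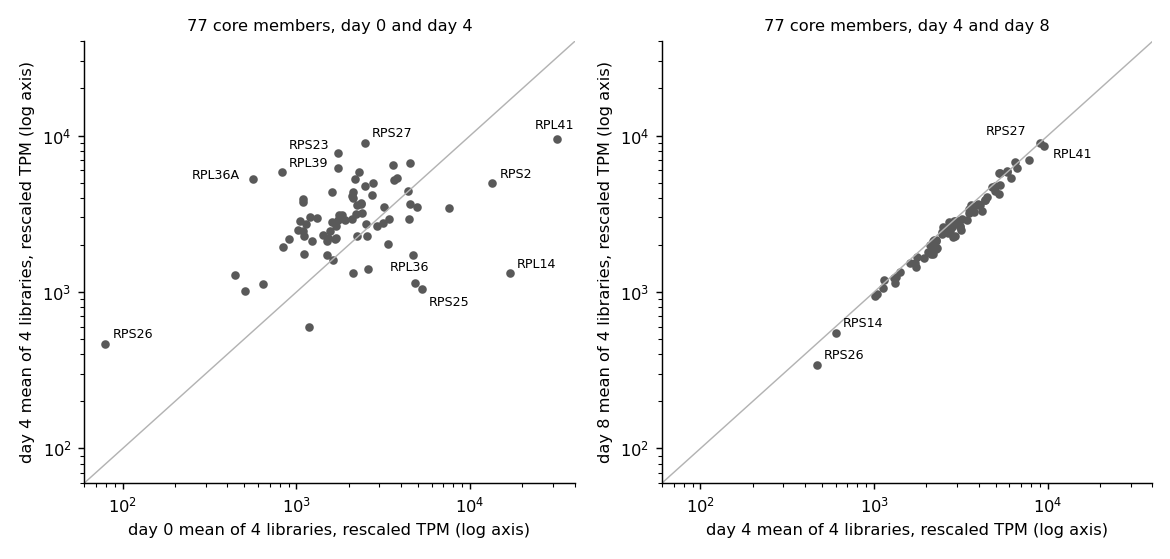
Each point is a core ribosomal protein gene, placed by its mean rescaled TPM over 4 libraries on 2 days, on log axes; the line marks equal levels. The left panel sets day 4 against day 0 and scatters widely (r = 0.401), with RPL14 and RPL41 below the line and RPL36A above it, and the right panel sets day 8 against day 4 and keeps close to the line (r = 0.991).

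Summed over all 84 members, ribosomal protein mRNA made up 21.5% to 27.4% of the nuclear protein-coding TPM. On day 0 the share was 22.5% and 22.99% in WT1 and WT2 and 21.5% and 24.1% in S13 and S23. On day 4 it was 24.4% and 23.3% in wild type against 26.8% and 27.4% in the libraries labelled SOX21-/-, and both of the latter lay above every other library. By day 8 it was 23.6% and 23.3% against 22.97% and 24.7%, with overlap.

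The group means were 22.8% ± 0.338 (SD, n = 2) in wild type and 22.8% ± 1.84 in SOX21-/- on day 0, 23.8% ± 0.759 and 27.1% ± 0.428 on day 4, and 23.4% ± 0.25 and 23.8% ± 1.2 on day 8. The gap on day 4 was present in both subunits. Large subunit genes held 14.7% and 14.1% in wild type and 16.2% and 16.7% in S13 and S23, and small subunit genes 9.63% and 9.14% against 10.54% and 10.7%. The ratio of the large to the small subunit sum was between 2.19 and 2.25 on day 0 and between 1.49 and 1.55 later. RPL41, RPL14 and RPS2, the 3 highest members on day 0, weighed on that day: without them the mean shares were 16.5% and 16.7% on day 0, 22.3% and 25.4% on day 4, and 21.9% and 22.5% on day 8. In bulk RNA, a smaller number of cells of a type and less RNA per cell cannot be told apart, and a share of a fixed total also moves with all other genes.

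**Figure D2:**
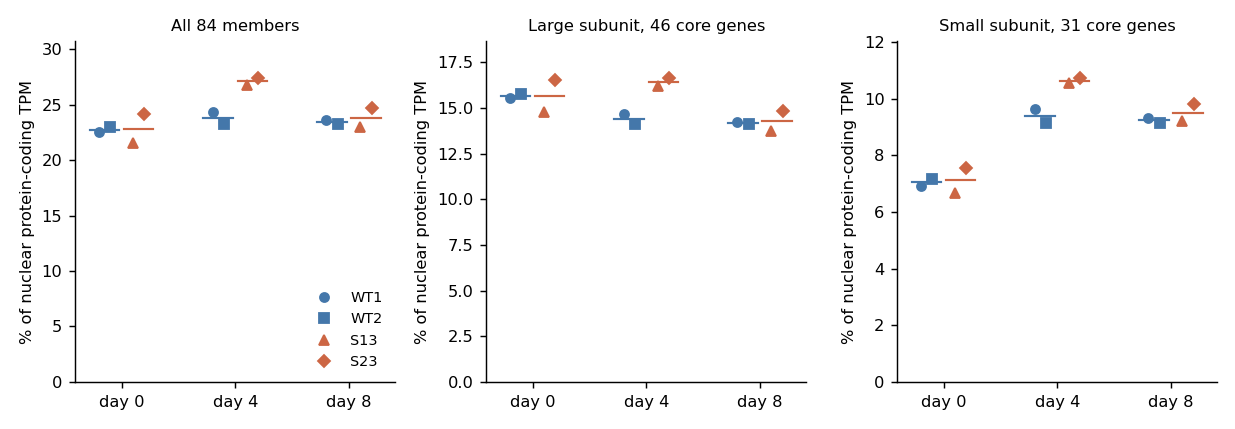
The y axes give the share of nuclear protein-coding TPM, in percent, held by all 84 members (left), by the large subunit core (middle) and by the small subunit core (right) in each library; short lines are group means of 2 libraries. On day 4 S13 and S23 (26.8% and 27.4% over all members) stand above WT1 and WT2 (24.4% and 23.3%), and on days 0 and 8 the genotypes overlap.

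The comparison of genotypes on day 0 asked whether the lines differed as stem cells. No member was called of the 82 that passed the filter on low values (RPL10L and RPL3L, both under 1, did not pass), with limma and an adjusted p under 0.05; over all 14809 genes tested, 0.054% were called. At an unadjusted p under 0.05 there were 2 members, RPL22L1 with a log2 fold change of -0.44 and RPS27L with 0.42. Of all 14809 genes, 1107 had an unadjusted p under 0.05. The 2 SOX21-/- libraries lay above both wild-type libraries in 3 members and below both in 3, where 17.3% and 15.9% of all genes did so. The median log2 fold change was 0.013 over the members and 0.006 over all genes. S23 exceeded S13 in 79 of 82 members on this day, by a median of 0.189 on the log2 scale, which is larger than the genotype difference.

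On day 4 nearly all members were higher in the libraries labelled SOX21-/-, by small amounts that did not pass the adjustment for any single gene. The log2 fold change was above 0 in 80 of 82 members, as it was in 34.1% of all genes. Its median was 0.187 over the members and -0.118 over all genes tested. With limma, 0 members were called (1.72% of all genes were). At an unadjusted p under 0.05 there were 41 members, all 41 higher, where 2872 of all 14809 genes passed in either direction. S13 and S23 both exceeded WT1 and WT2 in 73 members and both lay below them in 1, where 14.5% and 38.8% of all genes did so. S23 lay above S13 in 48 of 82 members on day 4, by a median of 0.029, and WT2 above WT1 in 29, with a median of -0.037 against 0.024 on day 0.

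The large subunit showed this pattern in each of its 46 core genes, with fold changes above 0 and a median of 0.174. RPL19, a large subunit protein with a long helical tail that reaches the small subunit, was at 2883 and 2826 in WT1 and WT2 and at 3596 and 3511 in S13 and S23. It had the smallest adjusted p of all members on this day (log2 fold change 0.32, SE 0.0746, limma adjusted p = 0.062). RPL35, a protein at the exit of the peptide tunnel, was at 2559 and 2330 against 3235 and 2900 (0.33, SE 0.0834, adjusted p = 0.0728). The genotype groups did not overlap in either gene; both were chosen after their values were seen. RPL3, which lies beside the centre where peptide bonds form, was at 4366 and 4508 against 5427 and 5490 (0.30, SE 0.0767, adjusted p = 0.0744). The stalk proteins, which recruit the elongation factors, had log2 fold changes of 0.16 for RPLP0, 0.20 for RPLP1 and 0.06 for RPLP2, with limma adjusted p of 0.351, 0.257 and 0.761.

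In the small subunit, 30 of 31 core genes had a fold change above 0, with a median of 0.196, and in 28 both SOX21-/- libraries exceeded both wild-type libraries. RPS19, needed to mature the 3′ end of the small subunit RNA, was at 2601 and 2635 in wild type and at 3241 and 3294 in S13 and S23 (log2 fold change 0.32, SE 0.0837, limma adjusted p = 0.0777). The groups stood apart, by more than the gap within either genotype. RPSA, also known as a laminin receptor, had a log2 fold change of 0.18 (adjusted p = 0.237). RPS4X, the X-linked gene of a small subunit protein, was the exception, at 2132 and 1853 against 1850 and 1884 (-0.09, adjusted p = 0.632). The other X-linked members had 0.15 for RPL10, 0.08 for RPL36A and 0.07 for RPL39 on the log2 scale.

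**Figure D3:**
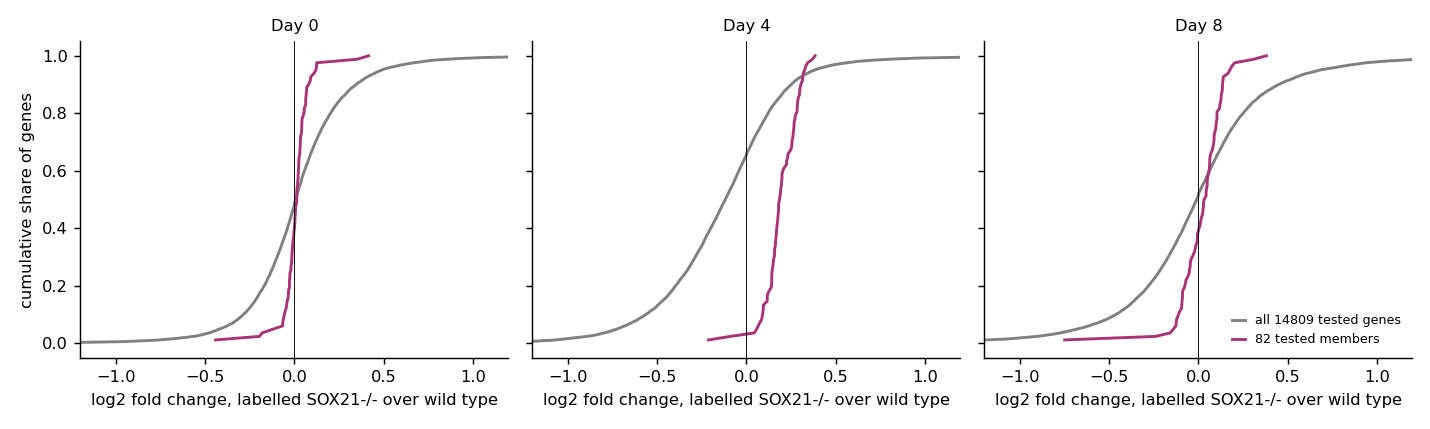
Cumulative share of genes (y axis) at or below each log2 fold change of the libraries labelled SOX21-/- over wild type (x axis), for all 14809 tested genes and for the 82 tested members, on each day. On day 4 the member curve lies to the right of 0 but for 2 genes (median 0.187) while the median of all genes is -0.118, and on days 0 and 8 both curves cross close to 0.

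The day 4 pattern kept its direction under other scalings. With median-of-ratios scaling, which moves every gene by 0.15 on the log2 scale in this comparison, the members' median was 0.334, and 80 members were higher in both SOX21-/- libraries where 26.5% of all genes were. With the members themselves left out of the scaling total these were 0.251, 78 and 19.7%. The number called moved between 0 and 4 with the libraries and genes in the fit: it was 4 without S13 on day 0 and 4 without S23 on day 0, 2 with days 4 and 8 alone, and 1 with the filter set at 5. The summed level of 8 young neuron markers also differed on day 4, at 233 and 251 in WT1 and WT2 and 124 and 164 in S13 and S23. On day 8 it differed too, at 306 and 333 against 233 and 164, with DCX, STMN2 and TUBB3 lower in both SOX21-/- libraries. ELAVL3, ELAVL4, NEUROG2 and NHLH1, at most 10.6 in any library of day 8, went the other way there, and INA overlapped. TUBB3 held most of the day 4 sum (162 and 181 against 68.4 and 102). INA (38.0 and 38.2 against 43.3 and 46.2) and NEUROG2, at most 1.13, went the other way on day 4. The part of these markers in the result was not tested.

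By day 8 the difference between genotypes over the members was smaller, and its balance turned on the scaling. The log2 fold change was above 0 in 50 of 82 members, as it was in 48.1% of all genes. The median log2 fold change was 0.037 over the members and -0.009 over all genes, and limma called 0 members, where 5.04% of all genes were called. An unadjusted p under 0.05 was found in 4 members and in 2831 of all 14809 genes. Both SOX21-/- libraries were above both wild-type libraries in 20 members and below in 15, where 24.5% and 27% of all genes were. These counts were 16 and 5 with median-of-ratios scaling, where 26.6% and 25.1% of all genes were above and below. With the TPM as deposited they were 27 and 11, where 25.8% and 25.2% were. RPL22L1, a paralogue of RPL22, was at 42.4 and 45.7 in wild type and 30.02 and 22.1 in S13 and S23 (log2 fold change -0.75, SE 0.197, adjusted p = 0.058). RPL41 was at 9165 and 9518 against 8054 and 7767 (-0.24, SE 0.0637, adjusted p = 0.0597). RPL38, a large subunit protein known for its part in translating Hox mRNAs in the mouse embryo, was at 1187 and 1389 against 1563 and 1621 (0.31, SE 0.0847, adjusted p = 0.0671). In these 3 genes the genotype groups did not overlap, though none passed. Leaving out either SOX21-/- library of day 0 or day 4, or setting the filter at 5, gave 1 call.

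From day 0 to day 4 single ribosomal protein genes moved far apart in both directions. In wild type, limma called 54 of 82 members higher and 21 lower, where 51.7% and 19.2% of all genes were called. In the libraries labelled SOX21-/- it called 57 higher and 16 lower, where 46.1% and 21.6% were. The median log2 fold change was 0.513 in wild type against 0.554 over all genes, and 0.689 against 0.422 in SOX21-/-. The split between higher and lower turned on the scaling. Median-of-ratios scaling lowers every fold change of this step by 0.67 in wild type and 0.50 in SOX21-/- on the log2 scale, and left 21 higher and 33 lower in wild type and 37 and 27 in SOX21-/-. With the TPM as deposited, the calls were 65 higher and 11 lower in wild type and 65 and 10 in SOX21-/-. The shares over all genes above belong to the rescaled TPM, not to these other scalings.

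The largest rises exceeded these shifts. RPL36A, an X-linked gene, was at 535 and 537 in WT1 and WT2 on day 0 and at 5580 and 4762 on day 4, and at 530.0 and 644 and then 5465 and 5403 in S13 and S23. Its log2 fold change was 3.26 (SE 0.114) in wild type and 3.21 in SOX21-/- (limma adjusted p = 9.87e-09 and 1.16e-08). RPS26 rose from 84.01 and 85.7 to 452 and 396 in wild type and from 71.9 and 75.9 to 540.1 and 478 in SOX21-/-, by 2.31 and 2.77 on the log2 scale. RPS23, which shapes the decoding centre, rose by 2.16 and 2.18 (1.24 and 1.30 when summed with its pseudogenes), and RPS27, a zinc-finger protein, by 1.78 and 1.94. No library of day 0 reached the level of any library of day 4 in these 4 genes.

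RPL14 had the largest fall, from 17073 and 16557 to 1253 and 1254 in wild type and from 17108 and 16693 to 1314 and 1456 in SOX21-/-. Its log2 fold changes were -3.74 and -3.61 (SE 0.0732, limma adjusted p = 6.64e-10 and 8.40e-10). RPS25 fell from between 4918 and 5715 to between 905 and 1122 over both genotypes, with log2 fold changes of -2.44 and -2.24. RPL36 fell with -2.25 and -1.93. RPL41 fell from 31736 and 32276 to 9008 and 8608 in wild type and from 29433 and 32796 to 9937 and 10260 in SOX21-/- (-1.86 and -1.62). RPS2, a small subunit protein at the mRNA entry, had -1.50 and -1.37. The day groups stood far apart in each of these genes, in both genotypes.

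Among the stalk proteins RPLP0 rose by 0.43 and 0.55 on the log2 scale while RPLP1 fell (-1.24 and -1.03) and RPLP2 fell (-0.88 and -0.86), all with a limma adjusted p under 0.05; under median-of-ratios scaling RPLP0 turned to -0.245 in wild type and stood at 0.05 in SOX21-/- (adjusted p = 0.696). Of the genes known from Diamond-Blackfan anaemia, RPL5, RPL11, RPS24, RPS26 and RPL35A rose in both genotypes. Under median-of-ratios scaling 3 of these 5 no longer passed in wild type, RPL11 at 0.07 (limma adjusted p = 0.542), RPS24 at 0.06 (0.69) and RPL35A at 0.22 (0.057). RPS19 fell by 0.69 in wild type and 0.50 in SOX21-/-; with the TPM as deposited it stood at -0.06 (adjusted p = 0.591) and 0.128 (0.242). RPL10 did not pass in either genotype (-0.03 and 0.06), and RPSA passed only in SOX21-/- (0.11 in wild type, adjusted p = 0.213, and 0.27, adjusted p = 0.00952); the difference between these was not tested, and median-of-ratios scaling turned RPSA in SOX21-/- to -0.228. Its call there was lost without S13 on day 0 (adjusted p = 0.0601), without S23 on day 4 (0.0792) and without the trend (0.0655).

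Processed pseudogenes named after members moved with the day 0 levels. The 1131 such pseudogenes held 2.49% to 2.83% of the deposited TPM on day 0 and 0.332% to 0.395% later. In deposited TPM, RPL41P1 was at 8594 to 9770 on day 0 and listed at 0 in the other 8 libraries. RPL39P3 was at 5960 to 6570 on day 0 and likewise listed at 0 in the other 8, and RPS28P7 was at 5058 to 6581 on day 0 and at most 97.5 later. RPL9P9 went the other way, from 312 to 369 on day 0 to between 1436 and 2000, as did RPL23AP42, from 397 to 468 to between 1228 and 1495. Reads of a gene and of its near-identical processed copies can be split between them by the counting. Members whose pseudogenes were high on day 0 are thus uncertain on that day. RPL9, at 1619 to 2077 deposited TPM on days 4 and 8, and RPL23A, at 763 to 1000, are uncertain on those later days.

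RPL39, a very short protein in the wall of the peptide tunnel, shows the size of this uncertainty on day 0. On its own it stood at 825 and 831 in wild type and 729 and 907 in SOX21-/- on day 0, against 6087 and 5283 and 6055 and 5821 on day 4, with log2 fold changes of 2.78 and 2.87. Summed with its pseudogenes, the fold changes were -1.04 and -0.95, so its direction rests on how such reads are assigned. RPL3 turned from 0.69 to -0.12 in wild type in the same way, through RPL3P4 (1158 to 1345 on day 0, at most 1.53 later). The direction of RPS28 also rests on this. RPS28 itself was at 342 to 391 deposited TPM on day 0 and 848 to 1163 on day 4. Its pseudogene RPS28P7 was at 5058 to 6581 and then at most 97.5. RPS23 kept its direction at a smaller size, with RPS23P8 at 876 to 963 on day 0 and at most 0.961 later. RPL41 fell by more, with -2.41 and -2.17. RPL14, RPS25, RPL36, RPL36A and RPS26 had at most 12.5 deposited TPM in their pseudogenes in any library. Summed with pseudogenes, the mean share of all members was 26.2% and 26.3% on day 0, and 24.1% and 27.4% on day 4. Across the 82 members, the wild-type change had a Spearman's rho of 0.442 with the number of pseudogenes named after the gene and 0.033 with the spliced length. These are descriptions across genes.

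From day 4 to day 8 the members were nearly level in wild type and lower in the libraries labelled SOX21-/-. In wild type limma called 2 members higher and 3 lower, where 12% and 7.15% of all genes were called, and the median log2 fold change was -0.020 over the members and 0.064 over all genes. RPL38 fell from 1760 and 1654 to 1187 and 1389 (-0.41, SE 0.0847, adjusted p = 0.00855). RPS4X fell from 2132 and 1853 to 1670 and 1550 (-0.30, adjusted p = 0.038), and RPS12 from 2705 and 2731 to 2232 and 2273 (-0.27, adjusted p = 0.030). The day groups did not overlap in any of the 3. The count of 5 was 1 without WT1 on day 4 or day 8, 3 without WT2 on day 4 or day 8 or without either SOX21-/- library of day 8, and 8 without either SOX21-/- library of day 0. It was 2 with no filter and 1 with variances moderated without a trend. RPS12 lost its call without any 1 wild-type library of days 4 and 8, RPS4X without WT1 on day 4, either wild-type library of day 0 or day 8 or either SOX21-/- library of day 8, and RPL38 without WT1 on either day (adjusted p = 0.0709 and 0.0769).

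In the libraries labelled SOX21-/-, 37 members fell and 1 rose over the same days, where 11% and 26.3% of all genes were called lower and higher. The median was -0.196 over the members and 0.20 over all genes. Both libraries of day 8 lay below both of day 4 in 62 members and above in 3, where 22.7% and 46.6% of all genes did so. The falls covered both subunits, with 21 of 46 large and 15 of 31 small core members called lower, and 1 of 5 paralogues. With median-of-ratios scaling, which lowers every fold change of this step by 0.22, 65 members were called lower and 1 higher. The shares over all genes above do not belong to that scaling.

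The largest fall in SOX21-/- was that of the paralogue RPL22L1, described with the other paralogues below. RPS26 fell from 540.1 and 478 to 356 and 293 (log2 fold change -0.65, SE 0.11, limma adjusted p = 0.00146), against -0.23 (adjusted p = 0.170) in wild type. The 2 later libraries lay below the 2 earlier ones. RPL37, of the large subunit, fell by 0.47 (adjusted p = 0.00373) and RPS6, the small subunit protein that S6 kinase phosphorylates, by 0.45 (adjusted p = 0.00116). Among the stalk genes, RPLP0 fell by 0.24 (adjusted p = 0.048) and RPLP1 by 0.30 (adjusted p = 0.0254), while RPLP2 was at -0.03 (adjusted p = 0.835); RPSA fell by 0.24 (adjusted p = 0.033). The call of RPLP0 was lost with the TPM as deposited (0.0568), a pseudocount of 0.1 (0.0515), days 4 and 8 alone (0.0551), no filter (0.105) and no trend (0.163). It was also lost without any 1 of the wild-type libraries, without S23 on day 4 (0.278) and without S13 on day 8 (0.276). RPLP1 and RPSA lost theirs with no filter, with no trend and without either of these 2 SOX21-/- libraries, and RPSA also without WT1 or WT2 on day 4. The total of 38 called members was 13 without S13 on day 8, 18 without S23 on day 4, 22 with no filter and 13 without the trend.

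**Figure D4:**
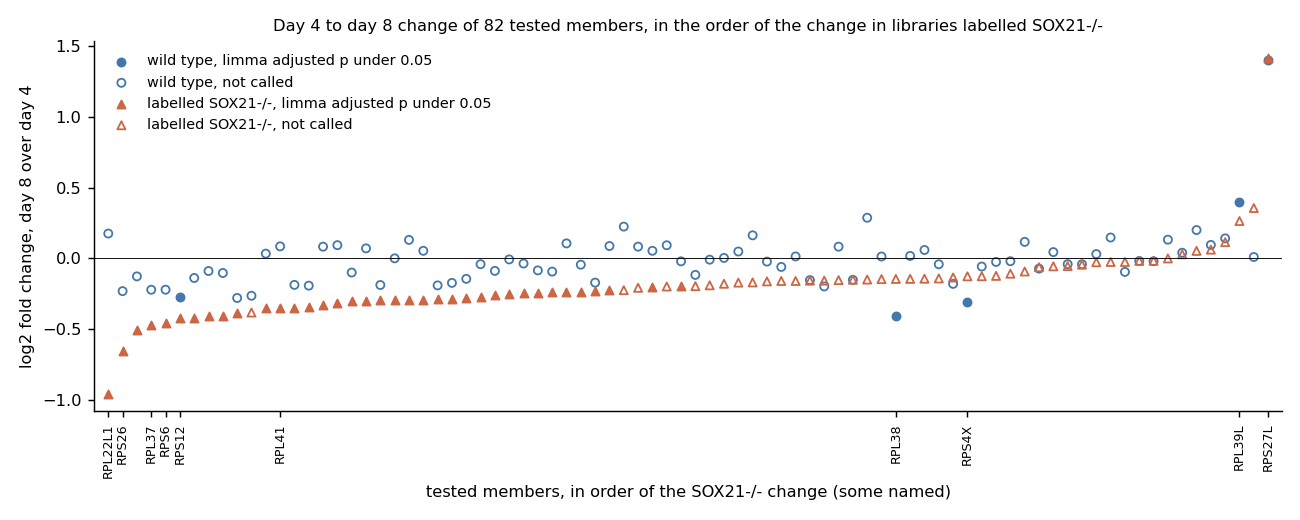
The y axis gives the log2 fold change of day 8 over day 4 for each of the 82 tested members, ordered on the x axis by the change in the libraries labelled SOX21-/- (triangles), with the wild-type change as circles; filled marks passed an adjusted p under 0.05 with limma. In SOX21-/- 37 filled triangles lie below 0 and only RPS27L above it, while in wild type 5 circles are filled.

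The difference between the 2 courses was tested as the change of the genotype difference from day 4 to day 8. With limma, 1 member was called, RPL41, where 2.13% of all genes were. RPL41 was at 9008 and 8608 on day 4 and 9165 and 9518 on day 8 in wild type, and at 9937 and 10260 and then 8054 and 7767 in S13 and S23. Its genotype difference changed by -0.44 (SE 0.0901, adjusted p = 0.0374), with the SOX21-/- libraries above wild type on day 4 and below on day 8. Of the 82 members, 71 had a change below 0 and 11 above 0, where 60% of all genes had a change above 0. At an unadjusted p under 0.05 there were 21 members, all of them below 0, where 2765 of all 14809 genes passed in either direction. The median was -0.161 over the members and 0.105 over all genes. RPL22L1 (-1.14, adjusted p = 0.067) and RPL35 (-0.45, adjusted p = 0.0798) were among those that did not pass. The call of RPL41 did not hold with the TPM as deposited (adjusted p = 0.0663), with the members left out of the scaling (0.0535), with median-of-ratios scaling (0.0597), with the line label as a replicate block (0.0505), with no filter (0.144) or without the trend (0.195). Nor did it hold when any single library other than those of SOX21-/- on day 0 was left out, with adjusted p of 0.0614 to 0.155.

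Of the 7 paralogues, 5 were expressed at levels far under their core partners and did not share 1 course. Together they held 0.0612% to 0.0741% of nuclear protein-coding TPM on day 0 and 0.0233% to 0.036% later. RPS27L, a paralogue of RPS27 (chr15:63125872-63158021, minus strand, GENCODE v29 on GRCh38), was at 213 and 242 in wild type and 274 and 337 in SOX21-/- on day 0. It was at 30.1 and 25.1 against 40.9 and 31.3 on day 4, and at 73.5 and 75.01 against 116 and 81.3 on day 8. Levels were highest on day 0, lowest on day 4 and between them on day 8 in each genotype, without overlap between days. It fell from day 0 to day 4 by 3.00 in wild type and 3.05 in SOX21-/- on the log2 scale, and rose from day 4 to day 8 by 1.40 (SE 0.187, limma adjusted p = 0.000924) and 1.41 (adjusted p = 0.000389).

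RPS27, its core partner, moved in the opposite direction from day 0 to day 4 and stood at 0.03 and -0.03 on the log2 scale after it (limma adjusted p = 0.867 and 0.853). RPS27L begins with gc at its annotated start, outside the run seen in RPS27. The S13 and S23 libraries were above both wild-type libraries at each day in RPS27L, by 0.42, 0.37 and 0.38 on the log2 scale, which did not pass (limma adjusted p = 0.667, 0.311 and 0.304).

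RPL22L1 (chr3:170864875-170870483, minus strand) was at 87.9 and 79.1 in wild type and 66.8 and 55.9 in SOX21-/- on day 0, at 41.6 and 36.3 against 62.0 and 42.0 on day 4, and at 42.4 and 45.7 against 30.02 and 22.1 on day 8. The SOX21-/- libraries were thus below wild type on days 0 and 8 and above it on day 4, where S23 lay just above WT1. RPL22L1 did not pass between genotypes on any day, with a limma adjusted p of 0.656, 0.318 and 0.058 on days 0, 4 and 8. It fell from day 0 to day 4 in wild type (-1.08, SE 0.197, limma adjusted p = 0.000582; -0.46 and 0.0824 with the TPM as deposited) and from day 4 to day 8 in SOX21-/- (-0.96, adjusted p = 0.00406). In the other steps it was at -0.25 (SOX21-/-, day 0 to day 4) and 0.18 (wild type, day 4 to day 8). RPL22, its core partner, rose by 1.502 and 1.58 from day 0 to day 4 and had -0.02 and -0.11 after (adjusted p = 0.886 and 0.276).

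RPL39L, known from male germ cells, was at 141 and 180 in wild type and 142 and 162 in SOX21-/- on day 0, at 54.4 and 54.5 against 66.1 and 65.9 on day 4, and at 72.5 and 71.9 against 83.0 and 76.0 on day 8. It fell from day 0 to day 4 by 1.53 and 1.19 on the log2 scale. From day 4 to day 8 it rose by 0.40 in wild type (SE 0.123, limma adjusted p = 0.0454), a call lost when any single library of days 4 or 8 was left out, with adjusted p of 0.0539 to 0.165. RPL26L1 was at 147 in WT1 and 78.1 in WT2 on day 0, the widest gap within a genotype among the members, and did not pass in any comparison. RPL7L1, which works in ribosome assembly rather than in the finished ribosome, was the only member below wild type in both SOX21-/- libraries on day 4, at 39.9 and 37.8 against 40.1 and 50.9 (-0.21, adjusted p = 0.432). RPL3L, known from heart and skeletal muscle, was at most 0.657, and RPL10L, known from the testis, at most 0.145 and listed at 0 in most libraries.

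**Figure D5:**
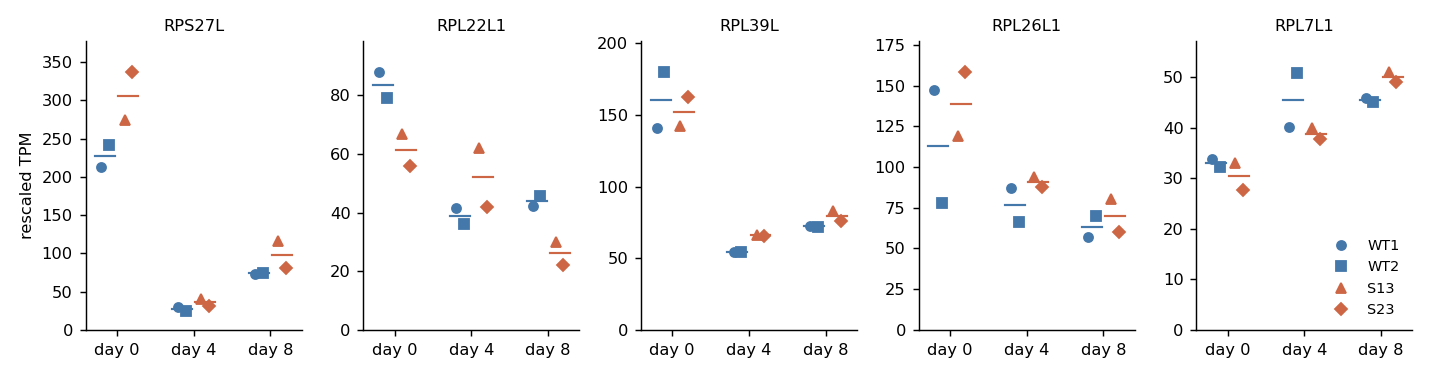
Rescaled TPM (y axes, each from 0) of the 5 expressed paralogues in each library by day; short lines are group means of 2 libraries. RPS27L drops from between 213 and 337 on day 0 to between 25.1 and 40.9 on day 4, and RPL22L1 in S13 and S23 lies above wild type on day 4 and below it on day 8. Neither of these genotype differences of RPL22L1 passed an adjusted p under 0.05 with limma.

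Other genes of ribosome production and of translation control were counted from lists of their own. On day 4 the 78 mitochondrial ribosomal protein genes, which serve the separate ribosome of that organelle, had a median log2 fold change of 0.195, and in 45 both SOX21-/- libraries exceeded both wild-type libraries, against 3 below. The shares over all genes were 14.5% higher and 38.8% lower. Ribosome assembly and nucleolar genes had a median of 0.096, with 28 of 73 higher and 6 lower without overlap. Other TOP messages had 0.091, with 15 of 33 higher and 6 lower. RNA polymerase I genes had 0.053, with 4 of 20 higher and 3 lower, a higher count near the share of all genes. Chaperones and importers of ribosomal proteins had 0.031, with 7 of 16 higher and 3 lower. None of these genes was called by limma. The one gene of any of the lists that was called on day 4 was MYCL, of the MYC family of growth regulators, at 8.75 and 7.65 in wild type and 28.4 and 39.0 in S13 and S23 (log2 fold change 1.90, SE 0.196, adjusted p = 0.0029).

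From day 4 to day 8 most of the assembly genes were called lower in SOX21-/-. These were 63 of 73 in SOX21-/- and 39 in wild type, with 0 higher, where 11% and 7.15% of all genes were called lower. The shares of all genes called higher were 26.3% and 12%. The medians of the assembly genes were -0.818 and -0.530. Examples are RRS1, needed for large subunit assembly, which fell from 44.6 and 45.2 to 15.6 and 12.8 in SOX21-/- (-1.60, limma adjusted p = 3.44e-05) and from 39.9 and 40.3 to 16.1 and 18.0 in wild type (-1.19, adjusted p = 0.000375). The groups of the 2 days stood apart in both genotypes. Mitochondrial ribosomal genes were called lower in 30 of 78 and higher in 3 in SOX21-/-. In wild type they were called 5 each way, and the count called lower was near the share of all genes. Other TOP messages were lower in 11 of 33 and higher in 1 in SOX21-/-, and 6 and 1 in wild type; RNA polymerase I genes were lower in 6 of 20 and in 4, and chaperones in 9 of 16 and in 7. On day 8 the assembly genes TBL3 (-0.63), BOP1 (-0.54) and NCL (-0.44), and GRWD1 (-0.70), a chaperone of RPL3, were called lower in SOX21-/- than in wild type. That was 3 of 73 assembly genes and 1 of 16 chaperones, where 364 of all 14809 genes tested were called lower. These lists share genes, as RRS1 stands in the lists of both assembly and chaperones.

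Among 27 genes of growth control, 4 were called lower in SOX21-/- on day 8, where 364 of all 14809 genes tested were. They included MYCN and MYC, which activate ribosome production, and EIF4EBP1, a translation repressor under mTOR. MYCN was at 81 and 82 in wild type and 95.5 and 80.1 in S13 and S23 on day 4, and at 42.5 and 53 against 22.5 and 17.8 on day 8. It thus overlapped between genotypes on day 4 and not on day 8 (log2 fold change -1.21, SE 0.18, limma adjusted p = 0.00457), and its genotype difference changed by -1.31 (adjusted p = 0.0311). LARP1, the TOP-binding regulator, fell from between 357 and 452 on day 0 to between 126 and 158 on day 4 (-1.49 and -1.57).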

How the data were processed

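TPM per gene were deposited by the authors, made with Salmon 0.8.2 after CASAVA 1.7 on hg38, per the submitters' processing notes. Overlapping genes are uncertain, since the sources used here do not give the annotation release or strand setting. The library protocol names several sequencers and read lengths without assigning them to libraries. TPM keep no read numbers, so depth and its precision are unknown. The table had 0 columns of other series.

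TPM were rescaled to nuclear protein-coding genes (outside MT- genes). Genes that reached a rescaled TPM of 1 in 2 or more libraries, 14809 in all, entered the test as log2(TPM + 1). This pseudocount of 1 understates changes of low genes. Tests used limma 3.58.1 in R 4.3.3. The model had a mean for each of 6 groups, 6 residual degrees of freedom, 4.34 prior degrees of freedom, a variance trend, two-sided tests and Benjamini-Hochberg adjustment over all genes tested, at 0.05. Every adjusted p is limma's. The script was tested on simulated data. The summed share has no test.

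Members and lists were chosen with earlier results of these data known. Named were up to 5 passing members each way without overlap, the stalk genes and RPSA, paralogues and partners, X-linked members, the 5 highest and lowest, the 3 widest gaps between libraries, Diamond-Blackfan anaemia genes and up to 3 passing list genes each way. Alternatives were other scalings, pseudogene sums, a pseudocount of 0.1, filters, moderation, days 4 and 8 alone, a replicate block and each library left out. The sum without 3 members and overlap counts under other scalings were added after seeing the data. Some members and listed genes entered the fit and counts but are not reported here. Locations are from GENCODE v29.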

Additional observations from a re-analysis of the deposited data

Results flagged for a closer look

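RPL41 was noted because its difference between genotypes changed from day 4 to day 8 by a test of that change: -0.437 on the log2 scale (SE 0.0901, limma adjusted p = 0.0374). Both libraries labelled SOX21-/- were above both wild-type libraries on day 4 and below both on day 8. The value kept its sign under every alternative run, and the adjusted p ranged up to 0.195. RPL41P1, its processed pseudogene, was listed at 0 in all 8 libraries of these days.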

How the results depend on the processing

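Groups of 2 libraries and an unknown depth limit all calls. Over the members named, 1509 of the recomputed values kept their direction and side of the threshold, 119 kept the direction but no longer passed, and 10 reversed. From day 0 to day 4 in wild type, median-of-ratios scaling reversed RPL26 (-0.296), RPL4 (-0.20), RPL7L1 (-0.218) and RPLP0 (-0.245), and pseudogene sums reversed RPL39 (-1.041) and RPL3 (-0.121); in SOX21-/- these were RPL7L1 (-0.136), RPSA (-0.228) and RPL39 (-0.950), and RPS19 was 0.128 as deposited.

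The summed share is given for wild type and SOX21-/- on day 0, then day 4, then day 8. It was 12.7%, 12.9%, 20.7%, 23.6%, 19.9% and 20.4% of the TPM as deposited. As a percentage of the genes that are no members it was 29.5%, 29.6%, 31.3%, 37.2%, 30.6% and 31.3%. With median-of-ratios scaling the libraries no longer sum to the fixed total, so the summed level of the members is not a share. Set against that fixed total, this level was 31.2%, 30.9%, 20.5%, 25.8%, 18.9% and 19.5%. Without RPL14, RPL41 and RPS2 the share of nuclear protein-coding TPM was 16.5%, 16.7%, 22.3%, 25.4%, 21.9% and 22.5%. With pseudogenes it was 26.2% and 26.3% on day 0 and 23.8% in wild type on day 8.

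Members called between genotypes numbered 0 on day 4 and became 1 with the filter at 5 and 2 with days 4 and 8 alone, and on day 8 1 with the filter at 5. In wild type from day 4 to day 8 the 5 became 3 with members left out of the scaling, 2 with no filter and 1 without the trend. In SOX21-/- the 38 became 66 with median-of-ratios scaling, 22 with no filter and 13 without the trend. The 1 call of the change in genotype difference became 0 as deposited, with members left out of the scaling, with no filter and without the trend. Leaving out 1 library each gave 0 to 4 calls on day 4, 0 to 1 on day 8, 1 to 8 and 13 to 41 from day 4 to day 8 in wild type and SOX21-/-, and 0 to 2 for the change in genotype difference; from day 0 to day 4 it gave 70 to 75 and 70 to 73. The causes were not tested.

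The line label as a replicate block gave 9 calls in wild type from day 4 to day 8, in place of 5, and moved no other count by over 1.5 times. The 1 call of the change in genotype difference under the block was not RPL41, which had an adjusted p of 0.0505. The labels repeat across days, but deviations of same-labelled libraries mostly correlated at only -0.0268 to 0.0235, so they were not treated as pairs. The exception was S13 and S23 between days 4 and 8, at 0.208, the step with 38 calls in SOX21-/-.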
